A study of Mus musculus with 3 samples.

Results

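The 10 genes described here handle arginine and nitric oxide in macrophages. They were chosen by name: *Nos2*, which makes nitric oxide, *Gch1*, which starts the synthesis of its cofactor, the arginine transporters *Slc7a1* and *Slc7a2*, the citrulline-recycling enzymes *Ass1* and *Asl*, the arginases *Arg1* and *Arg2*, and the polyamine enzymes *Odc1* and *Sat1*. On the microarray they were read by 13 of 56605 gene probes, and they are 10 of 26840 genes with a symbol. Each of 7 genes had 1 probe, and *Asl*, *Odc1* and *Sat1* had 2 probes each.

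The RNA came from RAW 264.7 cells, an established mouse macrophage line, so all values belong to a single line of immortalised cells. The first condition was LPS alone at 50 ng/mL, without lactobacilli (LPS). The others received *L. rhamnosus* CRL1505 or *L. plantarum* CRL1506 for 24 h at 50000000 cells/mL, were washed, and then received the same LPS (CRL1505 + LPS and CRL1506 + LPS). LPS, a component of Gram-negative bacteria that activates TLR4, was thus shared by all groups, and its duration is 12 h in the design text but 3 h in the sample descriptions. Each condition had 1 array, so no comparison has a replicate check and no p-value can be given. The arrays of LPS and CRL1506 + LPS shared a slide and a scan run that the third array did not share, and for comparisons of CRL1505 strain and slide cannot be told apart. The comparisons of both strains with LPS share the LPS array. As the data used here hold no array of non-stimulated cells, the response to LPS itself is not described.

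Macrophages that meet bacterial products make nitric oxide from arginine with the inducible synthase NOS2, and citrulline is the other product. NOS2 needs the cofactor tetrahydrobiopterin, and it depends on arginine that cationic amino acid transporters bring into the cell or that ASS1 and ASL rebuild from citrulline. Arginases compete for the same arginine and turn it into urea and ornithine, from which ODC1 makes putrescine, the first of the polyamines.

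The probes are DNA strands of 60 bases, and the first 30 bases are given for the genes that differed most between conditions and for the arginases, which were not measurable. Coordinates refer to mm9, the build given in the files. Probes of the genes at least 2-fold higher with CRL1505 than with LPS alone were as follows, with the second *Sat1* probe added because it gave another order of the strains.
*Nos2*, chr11:78773567-78773626, plus strand: caccatgccgccgctctaatacttagctgc
*Slc7a2*, chr8:42003321-42003380, plus strand: gaacacaattatctaaaacttcgagctaaa
*Gch1*, chr14:47775348-47775407, minus strand: cgtacattccagtttcagttggtacacttg
*Sat1*, first probe, chrX:151647849-151647908, minus strand: tgttgcatgtttgaaattcggtctgtttaa
*Sat1*, second probe, chrX:151650691-151650750, minus strand: gggcctggtgcgcaaagggaagaaaagcaa
The arginase probes were the following.
*Arg1*, chr10:24636194-24636253, minus strand: aactctgggaattaagtatttctccatgac
*Arg2*, chr12:80252972-80253031, plus strand: cacaggaacccctgttgtagggggattaac
No other gene probe on the array has the same sequence as a probe of these 10 genes. For *Ass1*, the probe annotation also lists a transcript of *Gm5424*, a related pseudogene, so its signal may include both. The main *Asl* probe covers 224 bases of the genome (chr5:130487513-130487736) with 60 bases of sequence, and so crosses a splice junction. Whether the other probes lie in coding or untranslated exons was not determined here.

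Signals are given as multiples of the 75th percentile over the gene spots of their own array. That percentile lay between 517.0 (CRL1505 + LPS) and 743.1 (LPS). Multiples of 1 probe may be compared between arrays, but not between probes, since probes differ in brightness at the same transcript abundance. Genes were counted as higher or lower at a ratio of at least 2-fold, which is 1 on the log2 scale. Among 300 probes spotted 10 times, the SD of the log2 ratio between spots had a median of 0.048 for CRL1505 against LPS and 0.043 for CRL1506 against LPS. Different probes of a gene were further apart, with a median SD of 0.23 and 0.21. Neither value covers the variation between cultures, and in RNA of whole cultures a larger share of cells with a transcript and more transcript per cell cannot be told apart.

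**Figure D1:**
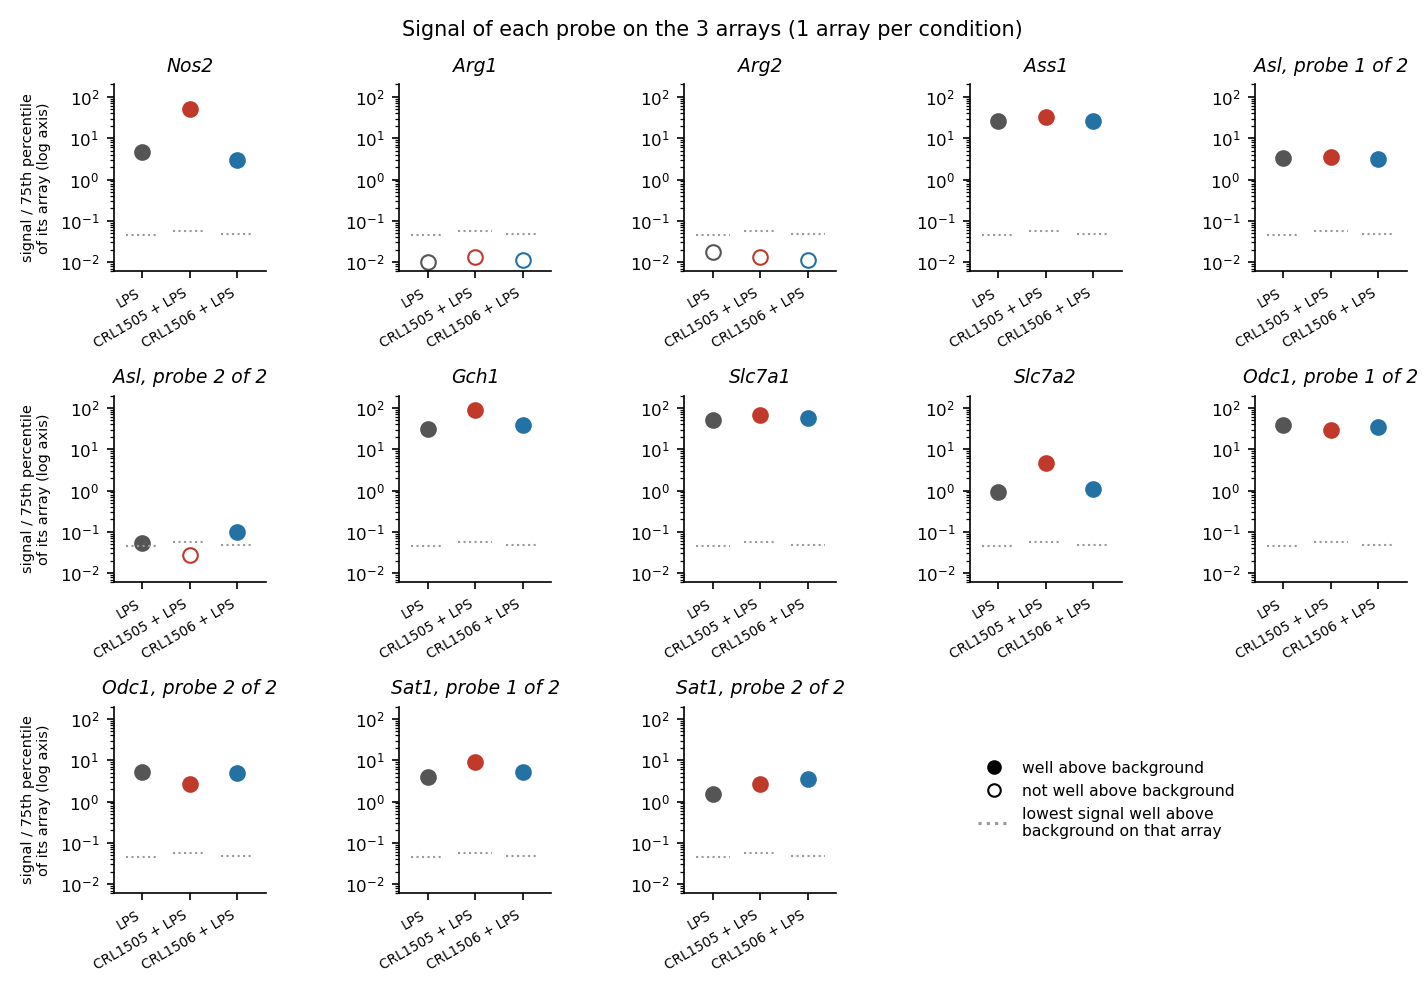
Signal of the 13 probes of the 10 genes on each array, as a multiple of the array's 75th percentile on a log axis, with 1 point per array (1 array per condition) and no error bars. Filled points are well above background, and the dotted lines mark the lowest signal well above background on each array. *Nos2* reached 49.9 with CRL1505 + LPS against 4.74 with LPS and 2.92 with CRL1506 + LPS, while *Arg1* and *Arg2* lay under the dotted line on all 3 arrays.

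With CRL1505, the genes for nitric oxide synthesis, its cofactor, inducible arginine import and polyamine acetylation were higher than with LPS alone, and none of the measured genes was at least 2-fold lower. Of the 8 genes that could be compared, *Nos2*, *Slc7a2*, *Gch1* and *Sat1* (4 genes, 50.0%) were at least 2-fold higher. The same rule called 9.92% of all 15609 compared genes as higher and 8.41% as lower. *Nos2* and *Slc7a2* (2 genes) were also at least 4-fold higher, as were 2.99% of all genes. The log2 ratios of the 8 genes had a median of 0.83, against 0.01 over all genes. With CRL1506, none of the same 8 genes passed 2-fold in either direction, while 5.67% of 16284 genes passed it upwards and 3.52% downwards. Their log2 ratios lay between -0.70 and 0.42, with a median of 0.07 against -0.06 over all genes. These counts use the brightest probe of each gene. By its second probe, *Sat1* had a log2 ratio of 0.76 with CRL1505 and 1.14 with CRL1506, so its place in both counts depends on the probe. The 8 genes were chosen for their roles, with earlier results of these data known, and not drawn at random, so these shares are descriptions only.

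**Figure D2:**
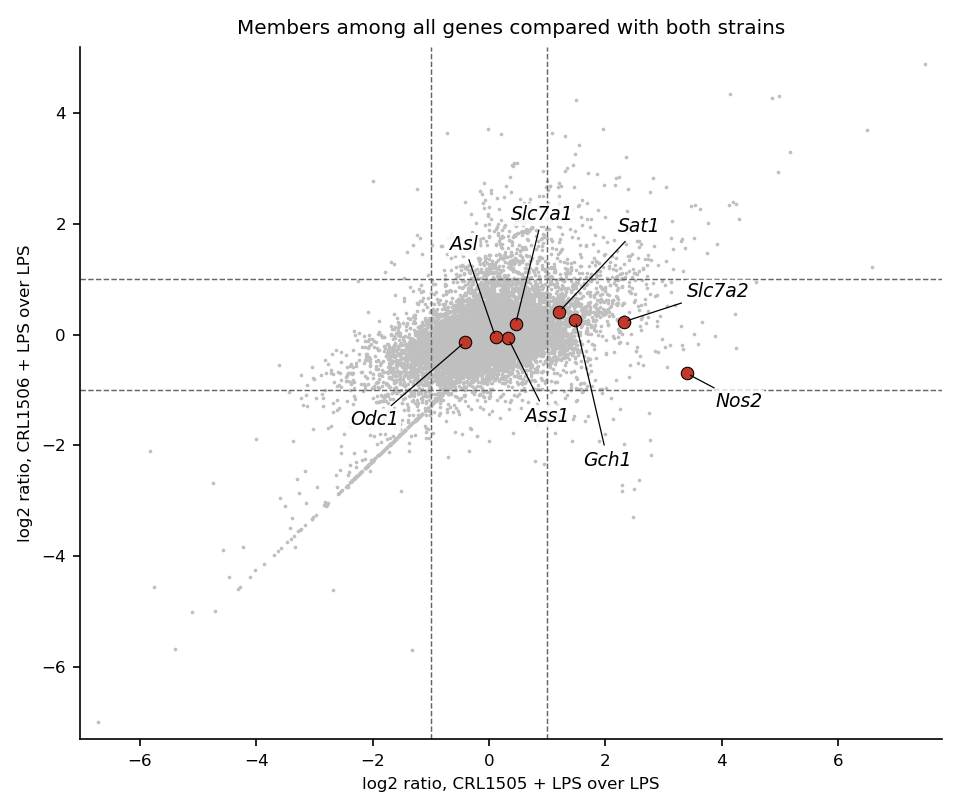
Log2 ratio to LPS with CRL1505 (x axis) and with CRL1506 (y axis) for the 15053 genes compared with both strains (grey points) and the 8 measurable genes of arginine and nitric oxide metabolism (red points). Dashed lines mark 2-fold, and grey points in a diagonal row are genes with only a bound with both strains. *Nos2* lies far to the right and under 0 on the y axis, at 3.40 and -0.70.

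*Nos2*, the inducible nitric oxide synthase, differed most. Its signal was 4.74 with LPS, 49.9 with CRL1505 + LPS and 2.92 with CRL1506 + LPS, so the array of CRL1505 + LPS was the highest and that of CRL1506 + LPS the lowest. Against LPS, *Nos2* was 10.5-fold higher with CRL1505, a log2 ratio of 3.40 and the rank 81 from the highest of 15609 genes. With CRL1506 it was 1.62-fold lower, a log2 ratio of -0.70 that does not reach 2-fold. It was the only one of the 8 genes at least 1.5-fold lower with CRL1506, as were 9.22% of all genes. The strains thus lay on opposite sides of LPS for this gene. Between the strains the ratio was 17.1-fold, or 4.10 on the log2 scale, and ranked 27 from the highest of 15785 genes. The single *Nos2* probe was well above background on each array, and none of the spots of the 10 genes was marked as an outlier.

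*Gch1* encodes GTP cyclohydrolase, the rate-limiting enzyme of tetrahydrobiopterin synthesis. Its signal was 31.5 with LPS, 87.9 with CRL1505 + LPS and 37.8 with CRL1506 + LPS. It was 2.79-fold higher with CRL1505 than with LPS (log2 ratio 1.48), whereas the 1.20-fold ratio with CRL1506 (0.26) was close to the spread between probes of a gene. The strains differed by 2.33-fold (1.22). Against LPS, *Gch1* was under 2-fold with spike-in scaling, at 0.98. Between the strains it was under 2-fold in 4 settings, namely spike-in scaling (0.84), the deposited log2 table (0.96), quantile normalization (0.97) and cyclic loess (0.97).

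The arginine transporters behaved differently from each other with CRL1505. *Slc7a2* encodes CAT2, the transporter whose expression is known to be induced together with NOS2 in activated macrophages. Its signal was 0.917 with LPS, 4.60 with CRL1505 + LPS and 1.08 with CRL1506 + LPS. This made it 5.01-fold higher with CRL1505 (log2 ratio 2.33, rank 329) and 1.18-fold higher with CRL1506 (0.24), which was similar to the spread between probes. *Slc7a1* encodes CAT1, the transporter present in most cell types. Its signal was 50.1 with LPS, 68.6 with CRL1505 + LPS and 57.0 with CRL1506 + LPS, and its ratio of 1.37-fold with CRL1505 (0.45) stayed under 2-fold. The log2 ratio of *Slc7a2* exceeded that of *Slc7a1* by 1.87 with CRL1505 and by 0.05 with CRL1506. Such differences between genes of the same arrays do not depend on a common shift of an array, and over the other scalings the first lay between 1.76 and 1.98.

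The enzymes that rebuild arginine from citrulline did not reach 2-fold with either strain. *Ass1* encodes argininosuccinate synthase, whose signal was 26.6 with LPS, 33.4 with CRL1505 + LPS and 25.4 with CRL1506 + LPS. Its log2 ratios were 0.33 and -0.07. *Asl* encodes argininosuccinate lyase, and its main probe gave 3.29, 3.55 and 3.18 on the same arrays, with log2 ratios of 0.11 and -0.05. All 3 signals of the main *Asl* probe were therefore within the spread between probes. The second *Asl* probe was dim, at 0.0546 with LPS and 0.101 with CRL1506 + LPS, and was not well above background with CRL1505 + LPS. It disagreed with the main probe, at a log2 ratio of 0.89 with CRL1506 and -0.82 or lower between CRL1505 + LPS and CRL1506 + LPS. With CRL1505, the log2 ratio of *Nos2* exceeded that of *Ass1* by 3.07, and by no less than 3.01 over the other scalings, and that of *Gch1* exceeded it by 1.15. With CRL1506 the difference between *Nos2* and *Ass1* was -0.63.

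The arginases could not be compared. *Arg1*, the cytosolic arginase known from alternatively activated macrophages, gave 0.0103 with LPS, 0.0135 with CRL1505 + LPS and 0.0111 with CRL1506 + LPS. *Arg2*, the mitochondrial arginase, gave 0.0180, 0.0136 and 0.0113. Neither probe was well above background on any array, where the lowest signals well above background were 0.0448 with LPS, 0.0573 with CRL1505 + LPS and 0.0474 with CRL1506 + LPS. Their transcripts were not detectable on these arrays, and no ratio is given.

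The polyamine enzymes gave uncertain values, because the probes of each gene disagreed. *Odc1* encodes ornithine decarboxylase, which makes putrescine from ornithine. Its brighter probe gave 37.9 with LPS, 28.5 with CRL1505 + LPS and 34.6 with CRL1506 + LPS, and its other probe gave 5.22, 2.61 and 4.96. Both probes were lowest with CRL1505 + LPS, but the size differed. The log2 ratio with CRL1505 was -0.41 by the brighter probe and -0.999 by the other one, just short of 2-fold. With CRL1506 the probes gave -0.13 and -0.07.

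*Sat1* encodes the acetyltransferase that marks spermidine and spermine for breakdown or export. Its brighter probe gave 3.91 with LPS, 9.01 with CRL1505 + LPS and 5.22 with CRL1506 + LPS, and its other probe gave 1.56, 2.65 and 3.46. LPS alone was the lowest by both probes, while the highest array was CRL1505 + LPS by the first and CRL1506 + LPS by the second. The log2 ratios with CRL1505 were 1.20 and 0.76, so that *Sat1* reached 2-fold by 1 probe only. With CRL1506 they were 0.42 and 1.14, and here the second probe alone passed 2-fold. Between the strains the probes gave 0.79 and -0.38. No order of the strains is therefore given for *Sat1*.

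Between the strains directly, *Nos2*, *Slc7a2* and *Gch1* (3 of 8 genes, 37.5%) were at least 2-fold higher with CRL1505 + LPS than with CRL1506 + LPS, and none was at least 2-fold lower. The shares over all 15785 compared genes were 9.01% and 7.46%. The count of 3 became 2 in the 4 settings that placed *Gch1* under 2-fold, and 4 with a median shift. *Slc7a2* was 4.25-fold higher, a log2 ratio of 2.09. The remaining genes had log2 ratios of 0.39 for *Ass1*, 0.27 for *Slc7a1* and 0.16 for the main probe of *Asl*. These were close to the spread between probes of a gene, whose median SD was 0.32 in this comparison. *Odc1* gave -0.28 by its brighter probe and -0.93 by the other, so that only the second lay well outside that spread.

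**Figure D3:**
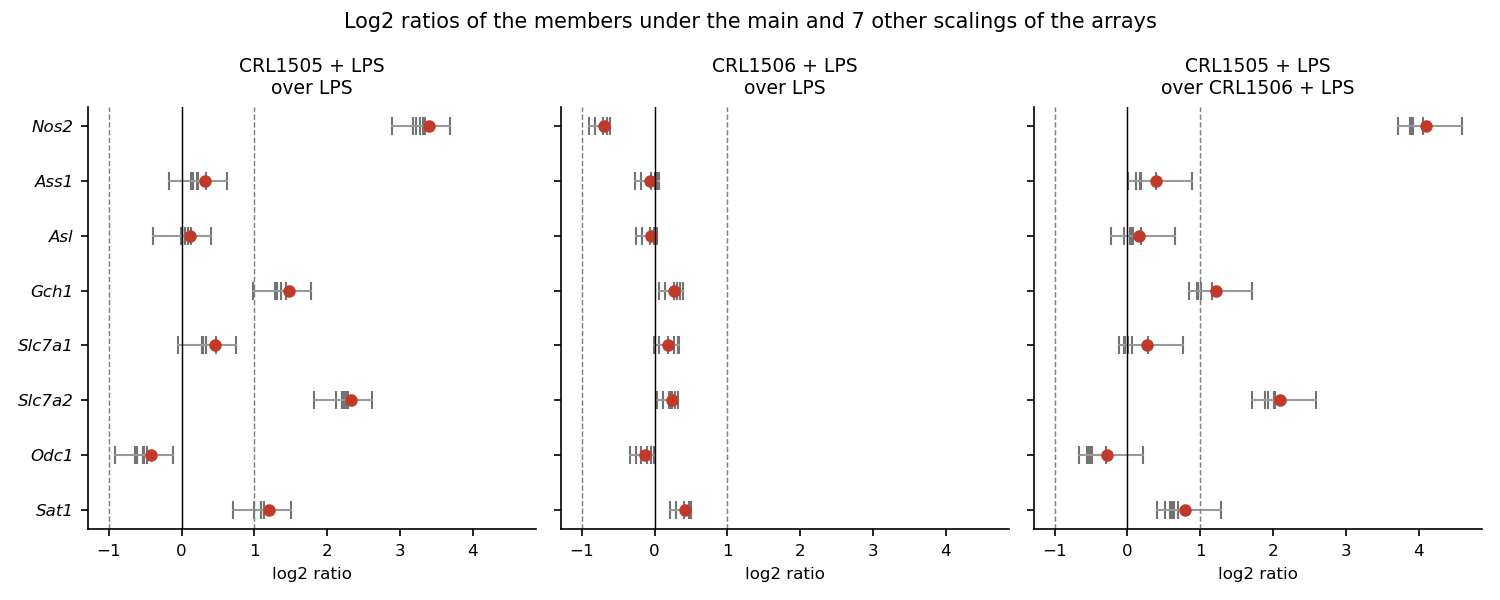
Log2 ratios of the 8 measurable genes in the 3 comparisons, by the main scaling (red points) and by 7 other scalings of the arrays (grey marks, joined by a line from the lowest to the highest), with dashed lines at 2-fold. *Nos2* and *Slc7a2* stayed above 2-fold with CRL1505 in each scaling, while *Ass1*, *Asl* and *Slc7a1* crossed 0.

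The sizes of these ratios depend on how arrays are made comparable. For CRL1505 against LPS, the median log2 ratio over genes well above background on both arrays was 0.06 by the main scaling, 0.35 by a shift of the medians and -0.44 by spike-in probes. The ratio of *Nos2* lay between 2.89 and 3.69 over the 7 other scalings and that of *Slc7a2* between 1.82 and 2.62. *Gch1* lay between 0.98 and 1.78, and *Sat1* was as low as 0.70 by its brighter probe. The signs of *Ass1*, *Asl* and *Slc7a1* were not settled, as their lowest values were -0.18, -0.39 and -0.05 and their highest 0.62, 0.41 and 0.75. With CRL1506, *Nos2* was lower than with LPS in each scaling, between -0.90 and -0.61.

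Other genes of the pathway were taken from 6 lists, which held 75 further genes on the array. Of these, 55 could be compared between CRL1505 and LPS, where 6 (10.9%) passed 2-fold upwards and 5 (9.09%) downwards. These shares were near those over all genes. With CRL1506, 1 of 56 was higher and 1 lower (1.79% each), against 5.67% and 3.52% of all genes. The median log2 ratio of these genes was -0.11 with CRL1505 and -0.19 with CRL1506.

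In the tetrahydrobiopterin list, 6 genes besides *Gch1* were compared, of which *Pts* was higher and *Gchfr* lower with CRL1505. *Pts* encodes the synthase that follows GTP cyclohydrolase, and its signal was 0.405 with LPS, 0.978 with CRL1505 + LPS and 0.738 with CRL1506 + LPS. *Gchfr* encodes the feedback regulator of GTP cyclohydrolase, which inhibits the enzyme when tetrahydrobiopterin is abundant. Its signal was 1.15, 0.349 and 0.599 on the same arrays, or 3.28-fold lower with CRL1505 (log2 ratio -1.71) and 1.91-fold lower with CRL1506 (-0.94). *Gch1* and its regulator thus lay on opposite sides of LPS with CRL1505, and *Gchfr* stayed at least 2-fold lower over the other scalings, between -2.22 and -1.38.

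Among other nitric oxide synthases, their regulators and targets, none of the 8 genes compared passed 2-fold with CRL1505. *Nos1ap*, an adaptor of the neuronal synthase, was 2.21-fold higher with CRL1506 (8.10 with LPS and 17.9 with CRL1506 + LPS). In the urea cycle list, *Agmat*, which encodes agmatinase, was 3.21-fold higher with CRL1505, at 0.202 with LPS, 0.648 with CRL1505 + LPS and 0.208 with CRL1506 + LPS. *Gamt*, which encodes the last enzyme of creatine synthesis, was lower with both strains, at 2.34 with LPS, 0.689 with CRL1505 + LPS and 1.12 with CRL1506 + LPS.

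Of 21 further genes of ornithine, proline and polyamine metabolism, 19 stayed within 2-fold with CRL1505 by their brightest probe, and all 21 with CRL1506. The exceptions were *Pycr1*, an enzyme of proline synthesis, with a log2 ratio of 1.04, and *Prodh*, which breaks proline down, with -1.10. The other *Sat2* probe did pass 2-fold, at -1.59 with CRL1505 and -1.10 with CRL1506. So did the other *Azin2* probe with CRL1505, at -1.22. Among 5 transporters compared, *Atp13a2*, a lysosomal polyamine exporter, was 2.61-fold lower with CRL1505 (log2 ratio -1.38, and -1.84 by its other probe).

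All 12 transcription factors listed for the *Nos2* or *Arg1* gene could be compared. With CRL1505, *Stat3* (log2 ratio 1.71), which transmits signals of IL-6 and IL-10, and *Klf4* (1.10), a zinc finger factor, were among those at least 2-fold higher. *Pparg*, a nuclear receptor, was at least 3.23-fold lower, as it was not well above background with CRL1505 + LPS. By the brightest probe, none of the 12 passed 2-fold with CRL1506, while 5.67% of all genes passed it upwards and 3.52% downwards. The median log2 ratios of the 12 were 0.51 with CRL1505 and -0.37 with CRL1506, against 0.01 and -0.06 over all genes. They are given for the main scaling only, and a shift of an array would move them. Other *Stat3* probes gave 0.999 and 1.04 with CRL1506, against 0.57 by the brightest. Between the strains they ranged from -0.75 to 0.41, against 1.14 by the brightest. The smallest values over the other scalings were under 2-fold for *Klf4* (0.60) and *Pparg* (-0.55). The same held for *Pts* (0.77), *Pycr1* (0.54) and *Prodh* (-0.27) with CRL1505, and for *Nos1ap* (0.94) and *Gamt* (-0.98) with CRL1506.

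**Figure D4:**
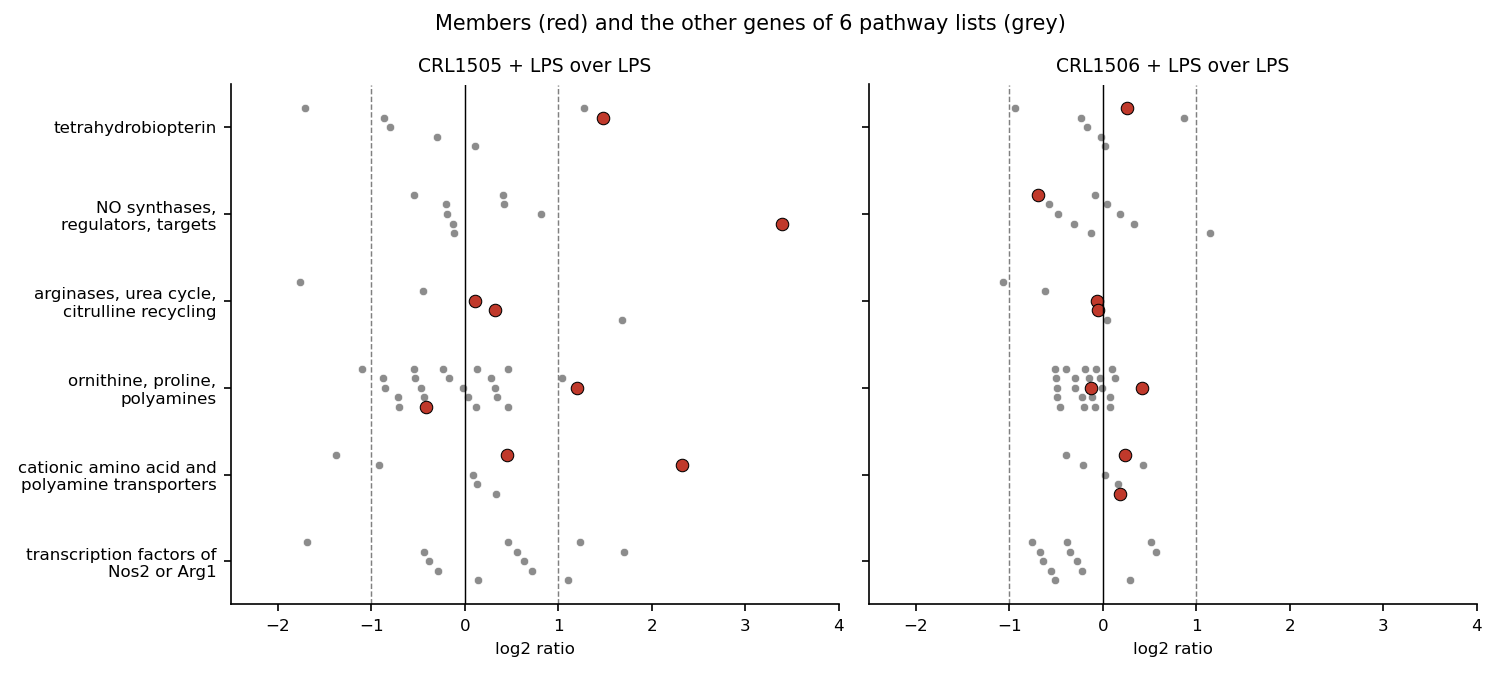
Log2 ratios to LPS of the 8 measurable genes (red points) and of the other genes of 6 pathway lists (grey points), with CRL1505 on the left and CRL1506 on the right, 1 point per gene and dashed lines at 2-fold. *Nos2* at 3.40 and *Slc7a2* at 2.33 lie to the right of the other genes of their lists with CRL1505.

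The genes whose pair of log2 ratios lay nearest to that of *Nos2*, by Euclidean distance among 13126 genes well above background on all arrays, were *Il1a*, *Apba1* and *Ifi205*. Their log2 ratios with CRL1505 and CRL1506 were 3.33 and -0.25 for *Il1a*, 2.90 and -0.31 for *Apba1*, and 3.53 and 0.01 for *Ifi205*. The distances from *Nos2* were 0.45, 0.63 and 0.72. The likeness rests on 3 arrays and is a description only.

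Macrophage markers were checked against the label of the cells. Of 10 such genes, 9 were well above background on all arrays and *Cd163* on none. With CRL1505, *Adgre1* and *Fcgr1* were at least 2-fold higher (log2 ratios 2.27 and 2.40) and *Csf1r* at least 2-fold lower (-1.47), while *Nos2* was higher. With CRL1506, where *Nos2* was lower than with LPS, the log2 ratios of *Adgre1*, *Fcgr1* and *Csf1r* had the same signs, at 1.003, 0.95 and -0.87. Of 19 markers of T cells, B cells, neutrophils, epithelial cells and fibroblasts, 5 were well above background on all arrays (*Cd3d*, *Cd3e*, *Cd4*, *Ms4a1* and *S100a8*) and 7 on none. Some of these markers differed from LPS with either strain. *S100a9*, a calprotectin gene of neutrophils, was at least 9.04-fold higher with CRL1505 than with LPS, and *Col1a2*, a fibroblast collagen, at least 3.50-fold higher, as both were too dim with LPS alone. *S100a8* was 2.48-fold lower and *Epcam*, an epithelial adhesion gene, at least 3.81-fold lower. With CRL1506, *Epcam* was 2.63-fold lower. The fibroblast genes *Col1a1* and *Dcn*, too dim with LPS alone, were at least 3.60-fold and 4.12-fold higher with CRL1506. These bounds hold for the main scaling. Over the other scalings, the smallest log2 ratios with CRL1506 were under 2-fold for *Col1a1* (0.74), *Dcn* (0.90) and *Epcam* (-0.78). With CRL1505 they were under it for *Col1a2* (0.77) and *Epcam* (-0.81), while that of *S100a9* was 2.03. Between the strains, *Col1a2* was 2.63-fold higher with CRL1505 + LPS, while *Col1a1* and *Dcn* were at least 2.81-fold and 3.23-fold lower. *Ly6g* was well above background with CRL1505 + LPS, not with CRL1506 + LPS, and had no value with LPS. The other neutrophil genes went both ways between the strains. *S100a9* was at least 8.56-fold higher with CRL1505 + LPS, while *S100a8* was 3.07-fold and *Mpo* at least 2.40-fold lower. Over the other scalings, log2 ratios between the strains were as small as 0.75 for *Col1a2*, -0.52 for *Col1a1*, -0.68 for *Dcn* and -0.43 for *Mpo*. The part of the markers in the ratios of the 10 genes was not tested.

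Promoter sequences were available for *Ass1*, *Gch1*, *Odc1*, *Sat1* and *Slc7a1*, or 5 of the 10 genes, from RefSeq on GRCm38.p6. The 250 bases before the start site are shown for *Gch1*, which was at least 2-fold higher with CRL1505, and for *Ass1*, which was not. Capitals mark matches to the motifs searched on both strands.
*Gch1*, chr14:47189414-47189663, minus strand: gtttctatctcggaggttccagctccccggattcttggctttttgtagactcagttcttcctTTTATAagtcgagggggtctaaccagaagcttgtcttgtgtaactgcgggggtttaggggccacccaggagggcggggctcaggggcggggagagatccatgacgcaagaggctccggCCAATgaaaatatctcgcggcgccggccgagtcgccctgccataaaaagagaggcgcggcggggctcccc
*Ass1*, chr2:31470020-31470269, plus strand: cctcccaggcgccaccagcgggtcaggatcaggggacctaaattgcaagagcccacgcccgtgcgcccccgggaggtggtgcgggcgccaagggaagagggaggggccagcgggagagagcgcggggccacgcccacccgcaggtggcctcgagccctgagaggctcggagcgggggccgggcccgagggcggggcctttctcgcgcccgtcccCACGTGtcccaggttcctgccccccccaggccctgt
*Gch1* holds CCAAT 70 bases before the start site and TATAAA on the opposite strand 188 bases before it. *Ass1* holds the E-box CACGTG 36 bases before its start. Of 32851 promoters of the same length, 33.8% hold CCAAT, 12.4% TATAAA and 6.02% CACGTG. The NF-kappaB letters GGG and TTCC spaced by 3 bases, found in 4.65% of promoters, were in none of the 5 genes, nor were the interferon response letters TTTC repeated after 2 bases (2.98%) or the cyclic AMP response letters TGACGTCA (1.55%). The gamma-activated site TTCNNNGAA (7.02%) was found for *Slc7a1*. A match describes letters in this window and says nothing of binding.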

How the data were processed

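Cy3-labelled RNA of RAW 264.7 cells was hybridised to SurePrint G3 Mouse GE arrays in 1 colour, 1 array for each of 3 conditions. The authors deposited the processed signal of each spot, an intensity with background subtracted, from Feature Extraction (version 12.0.3.1 in the file headers), and a table of log2 values normalized between arrays, with a median of 6.77 on each array. The submitters' processing notes name limma.

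Here the log2 processed signal was shifted by each array's 75th percentile over gene spots. Outlier spots were left out, repeated spots averaged, and the brightest probe taken for a gene. Probes well above background on neither array were not compared, and a probe well above it on 1 array only gave a bound, against the lowest signal well above background. No gene spot was saturated, and 48.5% to 55.3% of gene spots were well above background. The number of arrays limits the precision.

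All 10 genes are named, with the genes of the pathway lists at least 2-fold from LPS with either strain, and the 3 genes nearest to *Nos2*; 1 gene of the lists is not reported here. The genes and lists were chosen with earlier results of these data known. The t-test of the study's methods could not be run without replicates. Alternatives were 12 other settings, 7 of them scalings, and thresholds of 1.5-fold and 4-fold. Software was R 4.3.3 (limma 3.58.1) and Python 3.11.15 (NumPy 2.4.6, pandas 2.3.3). The procedure was tested on simulated data.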

Additional observations from a re-analysis of the deposited data

Results flagged for a closer look

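*Nos2* lay on opposite sides of LPS with the strains, at log2 ratios of 3.40 with CRL1505 and -0.70 with CRL1506, a difference of 4.10 between CRL1505 + LPS and CRL1506 + LPS. The signs were the same under the main and the 7 other scalings. The difference was not tested, since each condition had 1 array, and strain and slide cannot be told apart.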

How the results depend on the processing

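No paired analysis was possible because each condition had 1 array, and for the same reason no array could be left out. Over 12 other settings, the 8 measurable genes in 3 comparisons gave 288 values, of which 238 moved by less than 0.23, the spread between probes, and 50 by more. Part of the 238 could not move. The settings for dim probes and for outlier or uneven spots left these values unchanged, as the 8 genes were well above background on all arrays without such spots. The mean over probes could move only *Asl*, *Odc1* and *Sat1*. The count of these genes at least 2-fold higher with CRL1505 than with LPS was 4, 3 with the deposited log2 table or the mean over probes (without *Sat1*), and 2 with spike-in scaling or at a 4-fold threshold. Between the strains it was 3, 2 with quantile normalization, cyclic loess, spike-in scaling, the deposited table or 4-fold, and 4 with a median shift or at 1.5-fold. The count lower with CRL1506 was 0, and 1 at 1.5-fold. The other genes of the pathway lists were more sensitive. For CRL1505 against LPS, the 6 higher genes became 2 with spike-in scaling and 0 at 4-fold, and the 5 lower became 15 with spike-in scaling, 3 with normexp background correction or the deposited log2 table, 8 without a filter on dim probes, 12 at 1.5-fold and 0 at 4-fold. For CRL1506 against LPS, the 1 higher gene became 0 with a median shift or at 4-fold, 3 without a filter, and 2 with the mean over probes or at 1.5-fold. The 1 lower became 2 with a median shift, spike-in scaling or no filter, 0 with the 75th percentile of probes detected on all arrays, normexp or 4-fold, and 6 at 1.5-fold. Between the strains, the 5 higher with CRL1505 became 14 with a median shift, 13 at 1.5-fold, 3 with quantile normalization or the mean over probes, 2 with the detected-probe percentile, spike-in scaling or the deposited table, and 0 at 4-fold. The 2 lower became 0 with a median shift or at 4-fold, 5 with the detected-probe percentile, 11 with spike-in scaling or at 1.5-fold, 1 with normexp or a filter for probes above background on each array, 7 without a filter, and 4 with the mean over probes. The causes were not tested.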

Other observations

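By their brightest probe, some pathway genes passed 2-fold between the strains without passing it against LPS, and are named here after their values were seen. *Nos3*, the endothelial nitric oxide synthase, gave 0.388 with LPS, 0.684 with CRL1505 + LPS and 0.260 with CRL1506 + LPS, a log2 ratio of 1.39 between the strains. *Nfkb1*, a subunit of NF-kappaB, gave 54.2, 89.0 and 41.5, a log2 ratio of 1.10, while its other probes ranged from -1.17 to 0.46 and other scalings gave as little as 0.72. *Atp13a3*, a polyamine transporter, gave 1.02, 0.539 and 1.37, a log2 ratio of -1.35, with -1.80 by its other probe and a smallest value of -0.85 over other scalings. That other probe did pass 2-fold against LPS with CRL1506, at a log2 ratio of 1.63 against 0.43 by the brightest. Like *Nos2*, *Nos3* lay above LPS with CRL1505 and under it with CRL1506 over all scalings run. By their brightest probe, the listed transcription factors *Cebpb*, *Hif1a* and *Nfkb1* did so too, so the pattern was not particular to the synthases. Its share over all genes was not counted.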
